A study of Rattus norvegicus with 2 samples.

Results

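Peaks of N6-methyladenosine (m6A), a methyl mark on RNA, were examined in 10 genes of the NRF2 antioxidant response and of haem synthesis in lead-exposed rat hippocampal neurons. The genes were Nfe2l2, Keap1, Txnrd1, Hmox1, Gclc, Gclm, Nqo1, Alas1, Alad and Fech, and their peaks were all rows of the deposited peak table that carry one of these gene names. This gave 7 peaks of the 8512 in the table, in 4 of the 10 genes, while 6 had no listed peak. The table as a whole named 4212 genes.

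NRF2, the protein of Nfe2l2, is a transcription factor that KEAP1 holds in the cytoplasm and delivers to a ubiquitin ligase for destruction. Oxidants and electrophiles modify cysteines of KEAP1, and NRF2 then accumulates, enters the nucleus and switches on genes that make glutathione, reduce thioredoxin and quinones, and break down haem. Haem is built by a chain of enzymes that starts with 5-aminolevulinate synthase and ends with ferrochelatase, which inserts iron into the porphyrin ring. Lead is known to inhibit ALAD, the enzyme of the second step, and ferrochelatase, and in blood these effects serve as signs of lead exposure.

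The libraries were 1 m6A immunoprecipitate (Pb IP) and 1 input (Pb input), both made from cultured primary neurons of the newborn rat hippocampus (Sprague-Dawley strain) that were kept with PbAc, lead acetate, for 48 h beginning on day 12 in vitro. Both also shared earlier treatment with Ara-C, a drug that kills dividing cells, so that mainly neurons remain. The dose was 5 mM in the sample labels and 5 µM in the design text, and the labels also differed by a day on when the exposure ended. The comparison was IP against input in exposed neurons, which asks which RNA regions the antibody recovered. Unexposed neurons are not analysed here, and the values therefore do not show what lead changed.

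Each peak came with a fold enrichment, the ratio of IP signal over the background that the authors' peak caller estimated, and with a score, 10 times the −log10 of the caller's p, so that a score of 50 is a p of 1e-5 and a score of 100 a p of 1e-10. Both are the authors' own values. The false discovery rate in the same rows was 100% throughout, so none of the p limits used here is backed by it. With 1 library per group no value had a replicate check, and the table held no read counts, so depth is unknown. A gene without a listed peak may have had little RNA or little enrichment, and these cannot be told apart here. Coordinates are the deposited ones on a 1-based scale, and their build is not given in the sources. Exon, intron or UTR positions of the peaks are not analysed here.

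Txnrd1 had the strongest member peak, at 20.52-fold, followed by Nfe2l2 at 10.84-fold, Alas1 at 9.43-fold and Fech at 4.6-fold. The share of members with a listed peak was 40%, against 17.4% of 23154 protein-coding genes. When p was limited to 1e-5, 3 members kept a peak, Txnrd1, Nfe2l2 and Alas1, against 9.12% of protein-coding genes, and the same 3 kept one at a limit of 1e-10, against 7.03%. Peak by peak, 4 of 7 reached a p of 1e-10, against 32.9% of all listed peaks. A peak of 10-fold or more was found in 2 members, Txnrd1 and Nfe2l2, against 4.17% of protein-coding genes. The background includes genes that neurons do not express, and the members were chosen with earlier results of these data known, so these counts are a description.

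**Figure D1:**
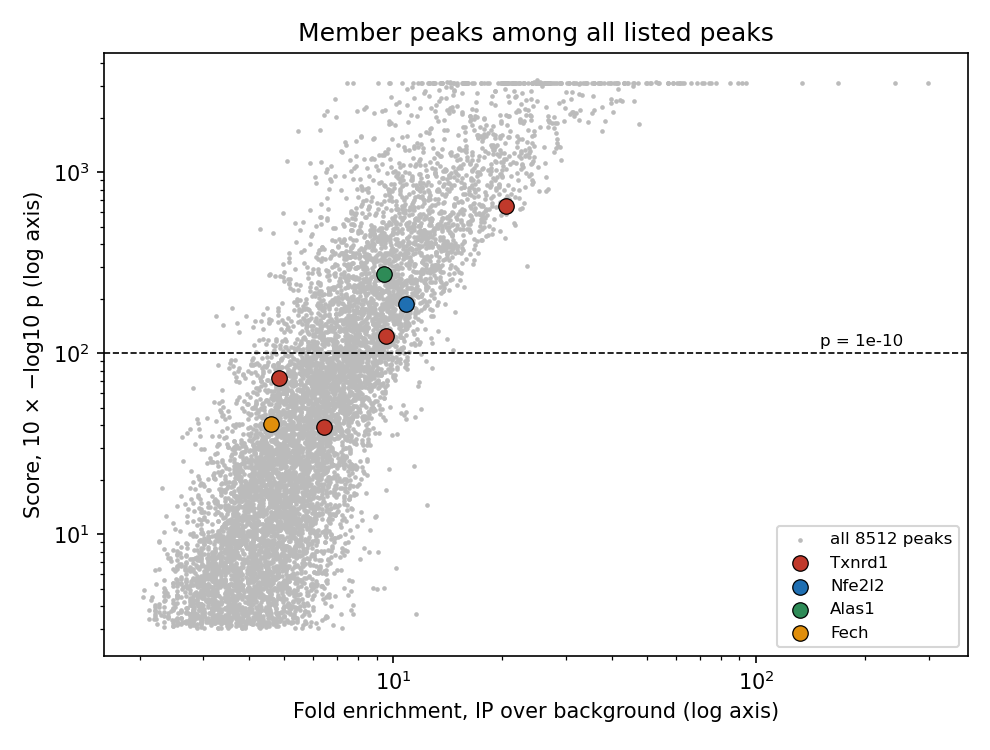
Fold enrichment of each listed peak (horizontal, log axis) against its score, 10 times −log10 p (vertical, log axis), with all 8512 peaks in grey and the 7 member peaks coloured by gene. The strongest Txnrd1 peak, at 20.52-fold and a score of 654.3, lies apart from the other 6, and 4 of the 7 lie above the dashed line at a p of 1e-10.

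The transcription factor gene Nfe2l2 had 1 peak, at bases 69068959 to 69069072 of chromosome 3 (gene ID 83619), 114 bases long. Its fold of 10.84 was above that of 85.6% of all peaks, and its score of 187.07 above 76.5%. By highest fold the gene stood above 79.3% of the 4212 listed genes, and above 89.3% of the 2320 listed genes with 1 peak. Among genes whose peaks met a p limit of 1e-5 or 1e-10, it stood above 60.9% and 49.7%, near the middle of the stricter list. The peak was short, with 25.6% of all peaks shorter. The nearest listed peaks of other genes were in Hnrnpa3, an RNA-binding protein gene, 38.6 kb away, and in Agps, an enzyme gene of ether lipid synthesis, 124 kb away. Keap1, which encodes the repressor of NRF2, had no listed peak under its name, its gene ID or its synonym.

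Txnrd1 encodes cytosolic thioredoxin reductase, a selenoprotein that keeps thioredoxin reduced and a known target of NRF2. It held 4 of the 7 member peaks on chromosome 7 (gene ID 58819). The first, at bases 27077545 to 27077701, was 157 bases long with a fold of 4.85 and a score of 72.69. The second, at bases 27080519 to 27080744, was 226 bases long with a fold of 6.44 and a score of 39.06. The third, at bases 27102771 to 27102878, was 108 bases long with a fold of 9.53 and a score of 124.49. The peaks therefore fell into a weaker pair and, 22026 bases further on by rising coordinate, a stronger pair. The last, at bases 27104003 to 27104095, was the shortest at 93 bases, with a fold of 20.52 above that of 96.8% of all peaks and a score of 654.3 above 90.4%.

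Fold and score did not order these peaks alike, since the second had a higher fold but a lower score than the first. The gaps between the peaks of a pair were 2817 and 1124 bases, and the whole run spanned 26.6 kb of the chromosome. The peak numbers ran from 11632 to 11635 without a break, so no other numbered peak lies between them. Distances on the chromosome include introns, and whether the peaks are separate methylated sites was not tested. The peaks are ordered by rising chromosome coordinate. Txnrd1 lies on the minus strand in the current rat assembly, GRCr8, and the order along the transcript was not analysed.

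**Figure D2:**
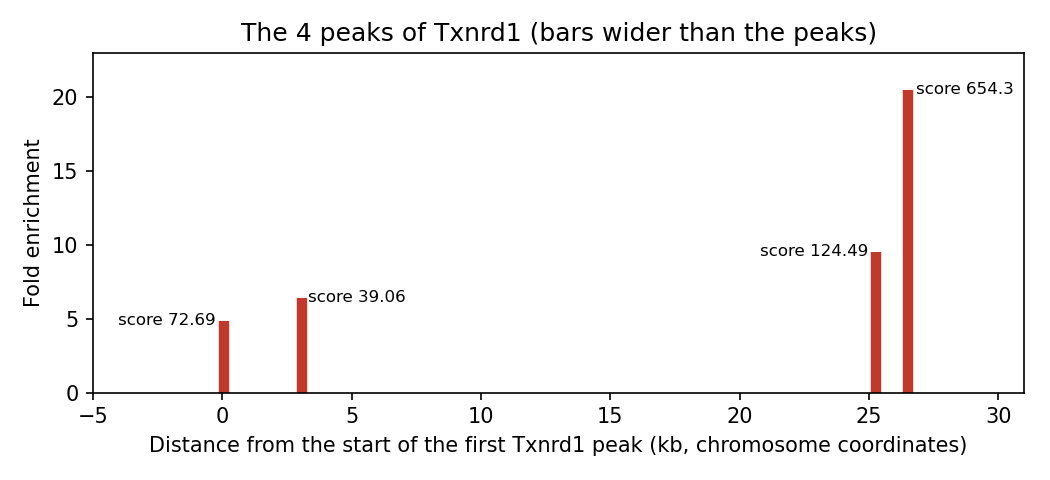
Fold enrichment of the 4 Txnrd1 peaks (vertical) against distance from the start of the first (horizontal, kb of chromosome), with each peak's score beside its bar. The bars are drawn wider than the peaks, and the pair on the right, at 9.53-fold and 20.52-fold, is higher than the pair on the left, at 4.85-fold and 6.44-fold.

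Most listed genes had fewer peaks than Txnrd1: 55.1% had 1, and 13.1% had 4 or more. Among the 245 genes with exactly 4 peaks on 1 chromosome, 31 had a higher strongest peak than Txnrd1, and the median highest fold of all 245 was 10.46. The strongest Txnrd1 peak was 4.23 times the weakest in fold, against a median ratio of 2.38 in those genes (quartiles 1.85 and 3.3), and 35 of them had a larger ratio. The span of the Txnrd1 peaks was within the quartiles of these genes, 12 and 61.6 kb. In the current rat annotation (assembly GRCr8) the span of Txnrd1 overlaps Eid3 and 3 long noncoding RNA genes. None of them had a listed peak, but the table gives no strand, so the source of reads where these genes overlap is uncertain.

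Of the other NRF2 targets among the members, none had a listed peak. They were Hmox1, whose enzyme haem oxygenase 1 breaks haem down to biliverdin, iron and carbon monoxide, Gclc and Gclm, the catalytic and modifier subunits of the first enzyme of glutathione synthesis, and Nqo1, which reduces quinones. Searches by gene ID and by synonym found no peak of these 4 genes under another name.

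NRF2 acts as a dimer with a small MAF protein on the antioxidant response element, a short DNA motif near its target genes. Sequences of promoters, not of peaks, are shown here as background, since no genome of the table's build was used. The core of the element, TGACNNNGC, was searched on both strands in windows from 250 bases before to 50 bases from a gene's start, in RefSeq sequences of build GRCr8. Windows were found for 9 members, all but Hmox1. At least 1 match was found in 3 of them, Gclm, Txnrd1 and Nfe2l2, and 12.1% of all 33469 windows held one. The matches are given below 5′ to 3′ on the gene's strand, with the core in capitals.
Gclm, chr2:213031953-213031981, plus strand: tgcggtttctGCTTAGTCAttgtcttcca
Txnrd1, chr7:22755964-22755992, minus strand: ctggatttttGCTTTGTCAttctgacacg
Nfe2l2, chr3:81028950-81028971, minus strand: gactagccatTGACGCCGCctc
The Gclm match reads on the opposite strand to the gene and begins 172 bases before its start. The Txnrd1 match also reads on the opposite strand and begins 78 bases before the start, in 1 of 2 windows listed for that gene. The Nfe2l2 match reads on the gene's strand and begins at base 39 of the transcribed part. A match is a description of these letters and not evidence of binding or of a place in the pathway. Sequence outside the windows was not searched, so a member without a match may still have the element. No peak position was compared with these windows.

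Among the 3 haem synthesis members, Alas1 and Fech had a peak each and Alad had none. Alas1 encodes the ubiquitous form of 5-aminolevulinate synthase, the enzyme of the first and rate-limiting step. Its peak, at bases 114289619 to 114289887 of chromosome 8 (gene ID 65155), was the longest member peak at 269 bases. Its fold of 9.43 was above that of 80.2% of all peaks and its score of 272.72 above 81.4%. By highest fold Alas1 stood above 72.9% of listed genes, and above 84.4% of those with 1 peak. It stood above 48.8% of genes at a p limit of 1e-5 and 35.7% at 1e-10, below the middle at both limits. In GRCr8 the span of Alas1 overlaps Rpl29, a ribosomal protein gene with many copies, which had no listed peak, so the source of reads where the genes overlap is uncertain.

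Fech encodes ferrochelatase, the last enzyme of the pathway. Its peak, at bases 59170460 to 59170608 of chromosome 18 (gene ID 361338), was 149 bases long. The fold of 4.6 was the lowest among the members' peaks and above that of only 28.4% of all peaks. The score of 40.54 was close to the median of all peaks, 40.47. By highest fold Fech stood above 21.4% of listed genes and above 33.1% of those with 1 peak, but above only 9.45% at a p limit of 0.05 and 9.98% with a 4-fold minimum. The nearest listed peak of another gene, in Nars, which encodes asparaginyl-tRNA synthetase, was 37.7 kb away, with a fold of 13.04.

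**Figure D3:**
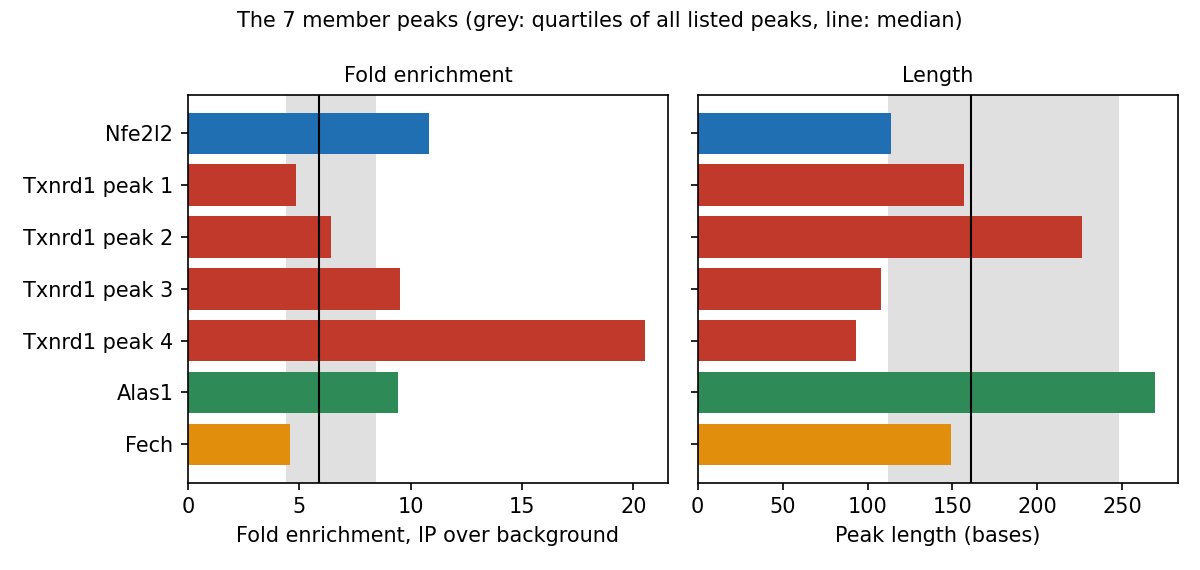
Fold enrichment (left) and length in bases (right) of the 7 member peaks, with the quartiles of all listed peaks as a grey band and the median as a line (5.9-fold and 161 bases). Nfe2l2, Alas1 and peaks 3 and 4 of Txnrd1 lie above the upper quartile of fold, 8.45, while Fech lies near the lower quartile, 4.41.

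At a given fold the members' scores were not alike. Among the 152 peaks with a fold within 10% of that of the strongest Txnrd1 peak, 9.87% had a lower score than its 654.3, and their median was 1278. For Nfe2l2, 30.4% of 562 such peaks had a lower score, and for the third Txnrd1 peak 30.8% of 749. The scores of Fech and the first Txnrd1 peak, the weakest by fold, stood higher among peaks of like fold. Lower scores were held by 82.1% of 1423 such peaks for Fech and by 92.2% of 1508 for the first Txnrd1 peak. Alas1 was above 68.6% of 767 and the second Txnrd1 peak above 42.1% of 1326. The 3 peaks with the lowest of these shares, those of Nfe2l2 and the third and last of Txnrd1, were also the 3 shortest member peaks. The part of peak length in the scores was not tested.

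Other genes of both pathways were counted in the same way. Of 41 other NRF2 pathway genes, 6 had a listed peak (14.6%), a share near the background of 17.4%. None reached a p of 1e-10, against 7.03% of protein-coding genes. Cul3, the scaffold of the ubiquitin ligase that KEAP1 serves, had 1 peak, at 5.19-fold and a score of 89.32. It was the sole gene of this list to reach a p of 1e-5, against 9.12% of protein-coding genes. Btrc, the substrate receptor of another ligase that marks NRF2, had peaks of 4.87-fold and 4.72-fold, with scores of 13.46 and 6.52. Gsk3b, the kinase that prepares NRF2 for that ligase, had 1 of 5.35-fold with a score of 21.66. The mitochondrial phosphatase gene Pgam5, whose protein binds KEAP1, was at 5.73-fold with a score of 9.18. Among enzyme genes, catalase (Cat) had peaks of 6.85-fold and 4.53-fold, with scores of 23.96 and 6.22. The glutathione transferase gene Gsta4 had 1 of 2.92-fold with a score of 4.53. The ligase subunit gene Rbx1, the small MAF genes Mafg, Mafk and Maff, and Bach1, a repressor that competes with NRF2 for its element, had no listed peak.

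Of 24 other haem pathway genes, 5 had a listed peak (20.8%), and 2 (8.33%) reached a p of 1e-10. Both shares were near those of all protein-coding genes, 17.4% and 7.03%. Cpox, which encodes coproporphyrinogen oxidase, an enzyme of a late step in mitochondria, had 1 long peak of 604 bases at 9.11-fold with a score of 100.44. Ppargc1a, whose protein PGC-1α is a transcriptional coactivator that induces Alas1 in liver, had 4 peaks, the strongest at 9.4-fold with a score of 298.63 and the others at 8.51-fold, 5.61-fold and 3.51-fold with scores of 35.87, 4.41 and 3.24. The haem oxygenase gene Hmox2, the constitutive form in brain, was at 5.35-fold with a score of 23.67. Alas2, the form of red blood cell precursors, had a region of 10 bases at 3.4-fold with a score of 6.52. Among the haem synthesis enzyme genes reported here, Alas1, Alas2, Cpox and Fech had a listed peak, and Alas1 and Cpox reached a p of 1e-10. Alad, the middle steps Uros and Urod, and the late step Ppox had none.

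**Figure D4:**
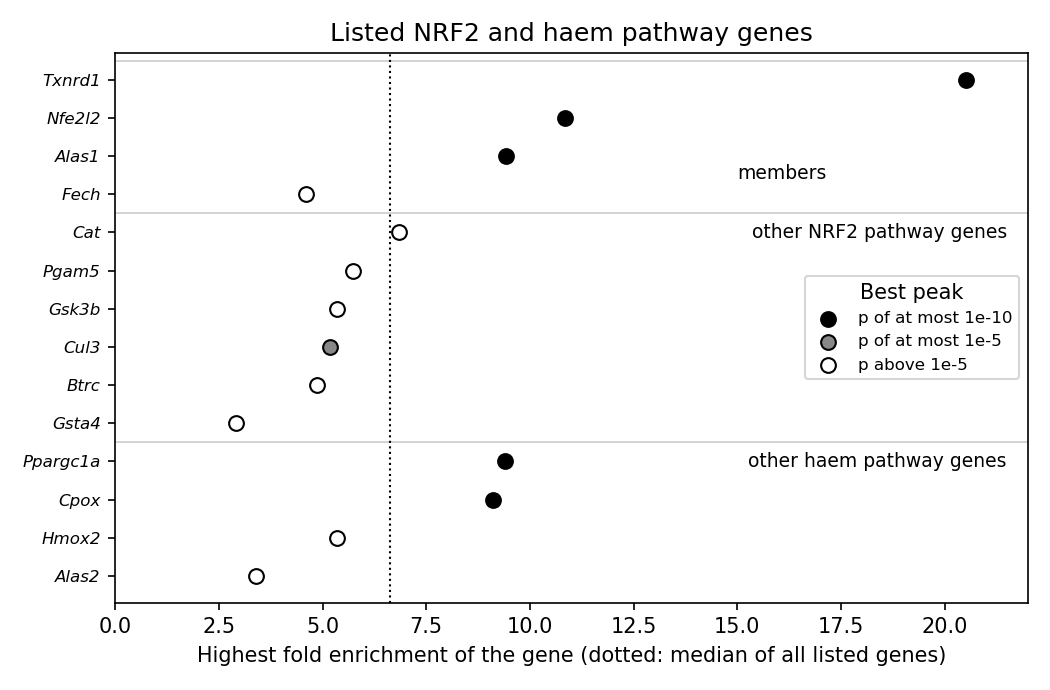
Highest fold enrichment (horizontal) of the listed genes reported here among the members, the other NRF2 pathway genes and the other haem pathway genes, filled by the p of the gene's best peak, with the median of all listed genes, 6.62, as a dotted line. Txnrd1, Nfe2l2 and Alas1 among the members, Cat, and Ppargc1a and Cpox lie above the median.

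In the table as a whole the false discovery rate stood at 100% in every row, so it does not separate one peak from another. The weakest peak had a score of 3.02, so the list is permissive. Peaks were listed in 8 of 12 neuron markers, from 6.22-fold in Rbfox3 to 70.97-fold in Gap43, each with a p of 1e-10 or lower, while Tubb3, Nefl, Stmn2 and Dcx had none. In other cell types, peaks were listed in 1 of 8 astrocyte markers (Sox9, with none in Gfap or Aqp4), 0 of 8 of the oligodendrocyte lineage, 2 of 7 of microglia and 1 of 8 of vessels and fibroblasts. The sole one of these 4 genes to reach a p of 1e-10 was Col3a1, at 7.2-fold. Of all protein-coding genes, 17.4% had a listed peak and 7.03% reached a p of 1e-10. The neuron share was 66.7% by both counts. The listed shares were 12.5% for astrocyte, 28.6% for microglia and 12.5% for vessel and fibroblast markers. These short lists cannot show that other cells were absent. The part of other cells in the members' peaks was not tested.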

How the data were processed

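A deposited table of m6A peaks, made from an IP and an input library, was used. Per the submitters' processing notes, HISAT2 2.0.4, STAR and cutadapt 1.9.3 were among the tools, with no role given. Peaks carry MACS names, per the file headers; version, thresholds and genome build are not given in the sources. Fold enrichment is a linear ratio as deposited by the authors. The score is the authors' 10 times −log10 p, per the file headers. The false discovery rate, a percent in the deposited table, was 100 in all rows and was not used.

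Rows were selected by gene name. Ranks are shares of listed peaks or genes with a lower value. Names, synonyms and overlaps came from a RefSeq gene table of GRCr8, which held all members and list genes; 230 of 8512 rows had no match. Gabpa and Gabpb1l, whose old synonyms resemble NRF2, are other genes and were not counted.

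The members and lists were chosen with earlier results of these data known. Named were all members, up to 8 listed genes per list, and set pathway partners without a peak; some genes that this rule takes are not reported by name. With 1 library per group no test was made. Ranking, merging and motif search were checked on simulated data. Alternatives were p limits of 0.05, 1e-5 and 1e-10, a 4-fold minimum, updated names, merged regions, mean fold, and ranks within a peak number. Tables were handled in pandas 2.3.3 under Python 3.11.15 and plots drawn in matplotlib 3.10.9.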

Additional observations from a re-analysis of the deposited data

How the results depend on the processing

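No paired analysis was possible because each group held 1 library and no result comes from a test. The members with a listed peak numbered 4 in the full list, with p limited to 0.05, with the 4-fold minimum and with updated names, and 3 when p was limited to 1e-5 or 1e-10, where Fech was lost. Their peaks numbered 7, and 5 and 4 at these limits. Members at 10-fold or more numbered 2 under each alternative run. The other NRF2 pathway genes with a peak fell to 1 when p was limited to 1e-5 and to 0 at 1e-10, and the other haem pathway genes to 2 at both. No region touched another, so merging changed nothing. With the mean in place of the highest fold, Txnrd1 stood at 10.3, below Nfe2l2 at 10.84. The ranks by highest fold depended on the p limit, because weak peaks of other genes then leave the list. At 1e-10, Txnrd1 stood above 86.4% of listed genes, Nfe2l2 above 49.7% and Alas1 above 35.7%. Fech, which has no peak at that limit, stood above 9.45% at 0.05 and 9.98% with the 4-fold minimum.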

Other observations

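The annotation in the deposited table ties 7 listed genes to the response to lead ion, a term looked up after the data were seen. How many genes this term holds in all was not counted. A p of 1e-10 was reached by 2 of the 7, against 40.6% of all listed genes. Dnmt3a, a DNA methyltransferase gene, was the highest at 18.03-fold with a score of 751.45 and 4 peaks. Cpox was at 9.11-fold, Cat at 6.85-fold for the stronger of 2 peaks, Fech at 4.6-fold and Alas2 at 3.4-fold. Sparc, a matrix protein gene, was at 7.67-fold and the phosphatase gene Ppp5c at 4.27-fold, but their scores of 3.81 and 3.2 lay near the table's lowest, 3.02.

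The table assigns 8 listed genes to glutathione metabolism, and how many genes the term holds in all was not counted. The isocitrate dehydrogenase genes Idh2 and Idh1, whose enzymes make the NADPH that reduces glutathione, were highest at 9.47-fold and 7.58-fold with scores of 158.21 and 69.19. Ggct, of glutathione breakdown, had 2 peaks, the stronger at 6.96-fold. The glutathione transferase gene Gstm7 was at 5.45-fold with a score of 162.58. Of the 8, 3 reached a p of 1e-10, a share near the 40.6% of all listed genes that did. In the porphyrin pathway of that annotation 8 genes were listed, and how many it holds in all was not counted. Of these 8, 2 reached a p of 1e-10, against 40.6% of all listed genes. Among the 8 was Cox15, which makes haem A for cytochrome oxidase, at 6.53-fold with a score of 10.12.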
